A study of Mus musculus with 9 samples.

Results

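Quiescent hepatic stellate cells (HSC) were followed in mouse liver tissue through 9 of their marker genes, Lrat, Reln, Ecm1, Colec10, Colec11, Hgf, Ngfr, Rgs5 and Hand2. These genes were taken by name, and all 9 were found among the 16755 genes of the authors' deposited table. The RNA-seq compared 3 groups of 3 mice. All mice carried floxed Scd2, the gene of stearoyl-CoA desaturase 2, an enzyme that makes monounsaturated fatty acids. Scd2f/f;CC mice also carried a Cre transgene under the Col1a1 promoter, which is active in collagen-producing HSC and portal fibroblasts. The deletion is thus not confined to HSC, and the study aimed it at activated HSC. In reporter mice of the study, HSC with vitamin A but without activity of this Cre were counted as quiescent. Scd2f/f;CC and Scd2f/f mice had received diethylnitrosamine (DEN), a liver carcinogen, at 2 weeks of age at a dose of 10 mg/kg, and WAD from 6 weeks, a liquid diet of lard, cholesterol and ethanol, for 4 months per the labels and 5 per the methods of the study. The third group, Scd2f/f control liver, was labelled untreated, although the protocol text of its labels names DEN and the diet too, and the sources used here give an age range for all mice of the study together but no age for this group. The mice of the study's methods are C57BL/6J males, and the tissue of DEN and WAD mice is named there both tumor-adjacent liver (TAL) and NTL, while the labels call it liver. TAL is used here.

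HSC lie between the hepatocytes and the endothelium of the sinusoids. In the healthy liver they are quiescent, hold most of the body's vitamin A as retinyl esters in lipid droplets, and secrete growth factors and extracellular proteins. In injured liver, HSC become activated: they turn into contractile myofibroblasts that make collagen, and the retinoid droplets and parts of the quiescent gene program are lost. The comparison of Scd2f/f TAL with control liver therefore asks how the quiescent markers stood in tissue after DEN and WAD, and that of Scd2f/f;CC TAL with Scd2f/f TAL asks how they stood once Scd2 was deleted in Col1a1-expressing cells.

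The values are the authors' means of each group, in reads per gene after upper-quartile normalization, without a correction for gene length. Where 3 means of a gene stand in a row, they belong to control liver, Scd2f/f TAL and Scd2f/f;CC TAL in this order, and 3 median log2 ratios in a row belong to Scd2f/f TAL against control liver, Scd2f/f;CC TAL relative to Scd2f/f TAL and Scd2f/f;CC TAL against control liver. The table gives the means with 3 significant digits, which can move a log2 ratio of a marker by at most 0.009. Values of each mouse were not analysed here, so no SD, interval or test stands beside any difference, and whether a difference exceeds the spread between mice was not tested. In whole tissue, moreover, fewer HSC and less RNA per HSC cannot be told apart. The depth of each sample is unknown. The means of all genes summed to between 658322 and 820581 per group with an upper quartile of 15.4 to 15.5, and the 10 most abundant genes held 27.9% to 39.6% of the sum. The highest mean was 76300 for CT010467.1 in control liver, 28200 for Gm12896 in Scd2f/f TAL and 51000 for Rn7s1 in Scd2f/f;CC TAL. Alb, the gene of albumin and a defining marker of hepatocytes, had means of 20900 to 22700. Scd2 had a mean of 2.46 in control liver, 6.47 in TAL of Scd2f/f mice and 1.87 in that of Scd2f/f;CC mice, counted over the whole gene and all cells of the tissue, so these values do not measure the deletion in HSC.

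All 9 quiescent markers had a higher mean in Scd2f/f TAL than in control liver, where 53.7% of all genes did. The log2 ratios ran from 0.24 for Hand2 to 1.13 for Ngfr with a median of 0.35, beside a median of 0.04 over all genes. Thus the quiescent markers were not lower in the tissue after DEN and WAD, and Ngfr was the 1 marker at least 2-fold higher, a size that 9.37% of all genes reached. No marker was lower, in contrast to 45.8% of all genes, and 4.69% of all genes were at least 2-fold lower. In Scd2f/f;CC TAL, 8 of the 9 markers had a lower mean than in Scd2f/f TAL (49.6% of all genes), and Ecm1 was marginally higher (49.5% of all genes). The log2 ratios of this comparison ran from -0.63 for Hand2 to 0.02 for Ecm1 with a median of -0.27, beside 0.00 over all genes. No marker was 2-fold lower, as 4.07% of all genes were, or 2-fold higher, as 1.82% of all genes were. Both comparisons use the same Scd2f/f TAL means, so a high mean there enters them with opposite signs.

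**Figure D1:**
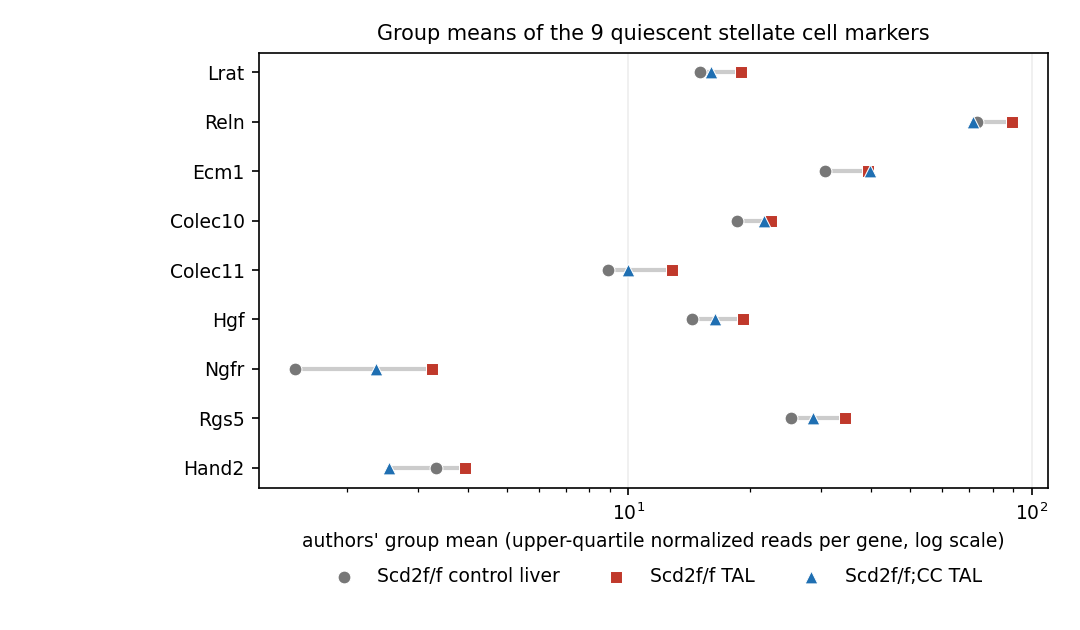
Authors' group means of the 9 quiescent HSC markers in upper-quartile normalized reads per gene (log axis), with 1 symbol per group and a grey line from the lowest to the highest mean. Scd2f/f TAL (squares) has the highest mean for 8 markers, and for Ecm1 the means of 39.2 in TAL of Scd2f/f mice and 39.8 in that of Scd2f/f;CC mice lie side by side. Means of different genes depend on gene length and are not to be compared.

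Set directly against control liver, Scd2f/f;CC TAL had a higher mean for 7 of 9 markers (54.5% of all genes) and a lower mean for Reln and Hand2 (45% of all genes). The median log2 ratio was 0.18, beside 0.05 over all genes, and none of the 9 reached 2-fold in either direction, as 6.41% of all genes did upward and 4.64% downward. At a limit of 1.5-fold, Ngfr was the 1 marker higher in this comparison (14.9% of all genes), and Hand2 the 1 marker lower in Scd2f/f;CC TAL than in Scd2f/f TAL (9.8% of all genes). For Lrat, Colec10, Colec11, Hgf, Ngfr and Rgs5, the Scd2f/f;CC mean thus lay between those of the other groups. The means of the 9 markers summed to 191 in control liver, 244 in TAL of Scd2f/f mice and 209 in that of Scd2f/f;CC mice. When each group was scaled by the sum of all genes in place of the upper quartile, log2 ratios moved by 0.32 for Scd2f/f TAL against control liver, by -0.17 for Scd2f/f;CC TAL relative to Scd2f/f TAL and by 0.15 for Scd2f/f;CC TAL against control liver. The share of all genes with a higher mean then became 78.0%, 25.2% and 67.7%, respectively, and the markers split into 9 higher and 0 lower, 0 higher and 9 lower, and 8 higher and 1 lower. Under this scaling, Ecm1 changed side in Scd2f/f;CC TAL relative to Scd2f/f TAL, and Reln did so in Scd2f/f;CC TAL against control liver. The scaling adds the same constant to every gene, so the distance of the markers' median from that of all genes does not depend on it. The sum rests in part on a few very abundant genes, and the most abundant of them differed between groups.

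**Figure D2:**
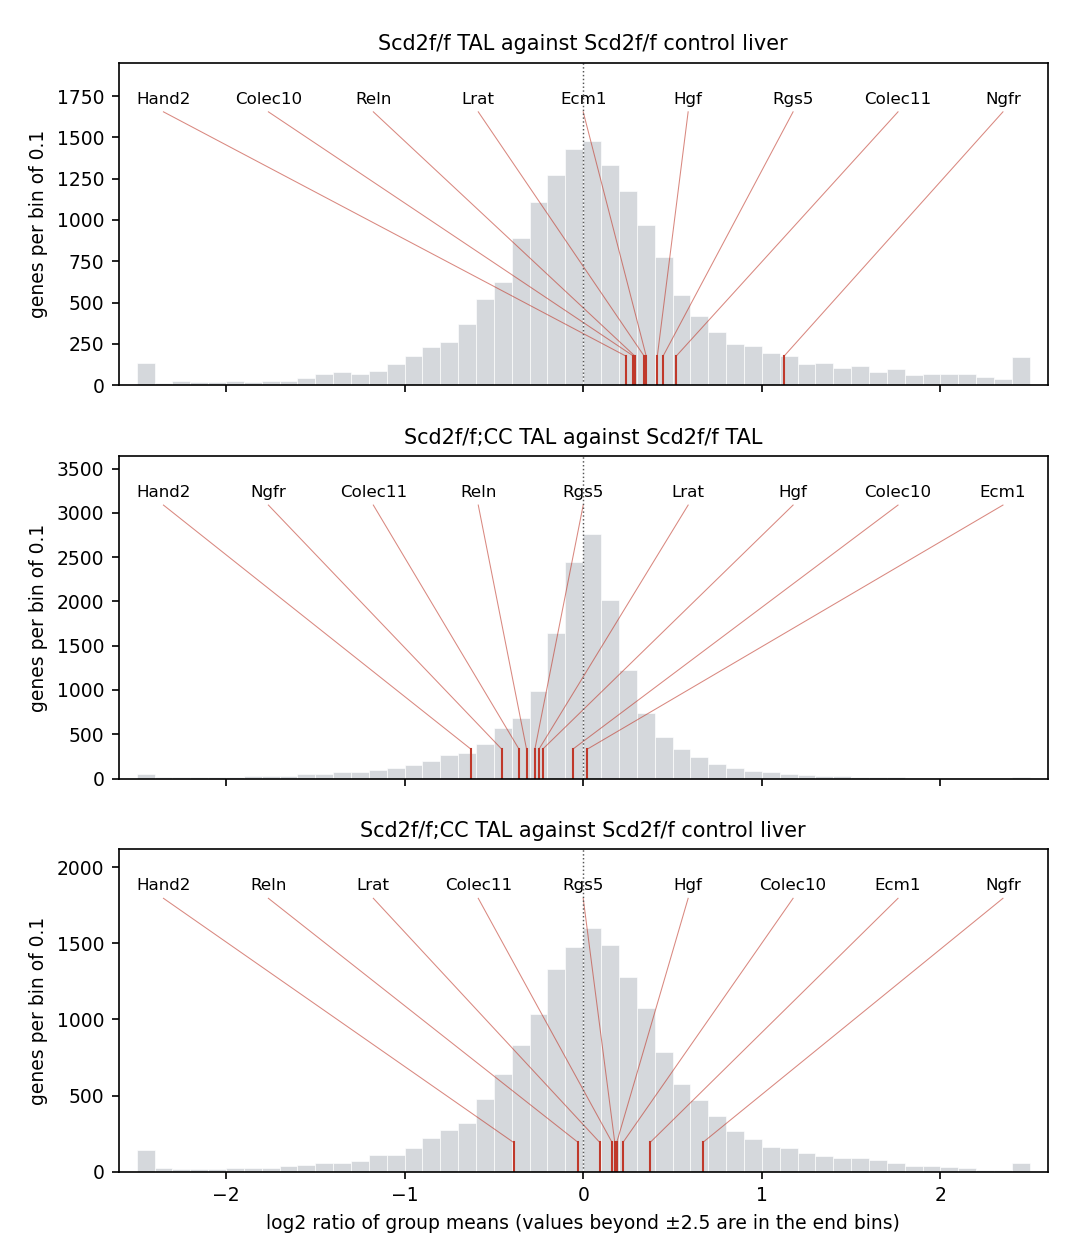
Log2 ratios of group means for all 16755 genes (grey bars, genes per bin of 0.1, with values beyond the axis in the end bins) and for the 9 markers (red ticks with names) in the 3 comparisons. The markers lie right of 0 in the upper panel, from 0.24 to 1.13, and mostly left of 0 in the middle panel, from -0.63 to 0.02. Of all genes, 92.0% have a lower ratio than Ngfr in the upper panel, and 8.98% have a lower ratio than Hand2 in the middle panel.

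The promoters of the markers were read from RefSeq on GRCm38.p6, as windows from 250 bases before to 50 bases after a transcription start. The table held 8 of the 9 markers with 9 windows, of which Hgf had 2, and Colec10 had no entry. The 250 bases before the start are shown for Lrat, as the gene of retinoid storage, for Ngfr, which had the largest ratio in Scd2f/f TAL against control liver, and for Hand2, which had the lowest ratio in Scd2f/f;CC TAL relative to Scd2f/f TAL. The last 2 were picked after their values were seen. The Lrat window is chr3:82903975-82904224 (minus strand), that of Ngfr chr11:95587699-95587948 (minus strand) and that of Hand2 chr8:57320733-57320982 (plus strand), each written 5′ to 3′ along the gene. Capitals mark E-boxes, CANNTG, the 6 letters that HAND2 and other bHLH factors are known to bind.
Lrat: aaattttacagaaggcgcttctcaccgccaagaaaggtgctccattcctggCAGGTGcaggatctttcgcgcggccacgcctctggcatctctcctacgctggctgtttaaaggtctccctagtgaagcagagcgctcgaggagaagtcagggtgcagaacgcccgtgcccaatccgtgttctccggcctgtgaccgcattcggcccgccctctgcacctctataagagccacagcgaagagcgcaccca
Ngfr: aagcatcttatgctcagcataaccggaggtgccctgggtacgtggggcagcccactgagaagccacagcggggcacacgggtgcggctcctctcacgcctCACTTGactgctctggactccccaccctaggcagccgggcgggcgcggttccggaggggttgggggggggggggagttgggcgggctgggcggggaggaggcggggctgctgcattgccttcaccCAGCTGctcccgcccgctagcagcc
Hand2: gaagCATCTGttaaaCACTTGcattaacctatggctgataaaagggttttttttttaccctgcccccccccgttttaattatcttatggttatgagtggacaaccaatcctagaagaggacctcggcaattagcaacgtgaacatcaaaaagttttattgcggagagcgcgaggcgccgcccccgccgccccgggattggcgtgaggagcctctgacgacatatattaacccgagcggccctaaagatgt
Lrat had an E-box at position -199 from the RefSeq start, Ngfr at -150 and -25, and Hand2 at -246 and -235. The GENCODE start of Ngfr, 95587735, lies within its window, so by that annotation the E-box at -25 is inside the gene. Of the 9 windows of the markers, 8 had an E-box, all but 1 of the Hgf windows, as did 72.3% of all 32851 windows of the same length. The GATA motif TGATAA was found in the Hand2 window alone (9.05% of all windows) and its other form AGATAA in those of Rgs5, Hand2 and Colec11 (11.2%). GGAATG, the core of the motif of TEAD, the DNA-binding partner of YAP1, was found in the Lrat window alone (14.7%), and TATAAA in that of Ecm1 alone (13.6%). AGGTCA, the unit of retinoic acid response elements, was found in none (16.3%). All motifs were searched on both strands, and no motif contains another. A match describes the letters of a window and is not a bound site. In base composition the windows differed widely, from 80.7% G and C for Reln, 71.7% for Ngfr and 60.7% for Lrat to between 50.3% and 54.7% for the others, with a median of 52.7% over all windows.

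Lrat encodes lecithin-retinol acyltransferase, which esterifies retinol for storage, and is the defining gene of vitamin A-holding HSC (chr3:82892579-82903973, minus strand). Its mean was 15.0 in control liver, 19.0 in TAL of Scd2f/f mice and 16.0 in that of Scd2f/f;CC mice. Lrat was thus 1.27-fold higher in Scd2f/f TAL than in control liver, with a log2 ratio above that of 72.3% of all genes. In Scd2f/f;CC TAL it was 0.842 times the Scd2f/f TAL mean and 1.07 times that of control liver. Of the genes that carry, esterify, release, oxidize or sense retinoids, 26 of 29 were in the table, and they showed no common direction. Their median log2 ratios were 0.08 for Scd2f/f TAL against control liver, 0.07 for Scd2f/f;CC TAL relative to Scd2f/f TAL and 0.05 for Scd2f/f;CC TAL against control liver. Cyp26a1, which degrades retinoic acid, had means of 5.93, 2.14 and 2.67, and Rdh11, a retinal reductase, 34.9, 7.58 and 6.99, in the same order of groups. Lpl, the lipoprotein lipase, went the other way, with 16.3, 83.6 and 66.2. Macrophages, whose markers were also higher in TAL, are known to express Lpl, and which cells its means came from was not tested.

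Reln, the gene of the secreted glycoprotein reelin, known for the placement of neurons and made in liver by HSC, spans chr5:21884454-22344702 on the minus strand. Its mean was 73.0 in control liver, 89.2 in TAL of Scd2f/f mice and 71.6 in that of Scd2f/f;CC mice. Reln was thus 1.22-fold higher in Scd2f/f TAL than in control liver, and the Scd2f/f;CC mean, 0.803 times that of Scd2f/f TAL, lay marginally under the control mean, though above it when groups were scaled by the sum of all genes. Of the 23738 exon bases of Reln, 246 are shared with the antisense gene Gm10475. Without strand in the library kit, reads of the 2 genes in these shared bases cannot be told apart. Among the receptors of reelin, Vldlr was measurable, with means of 4.22, 9.97 and 11.4 in control liver, Scd2f/f TAL and Scd2f/f;CC TAL, whereas Lrp8 was near the floor of the table with 0.0745, 0.155 and 0.105. The 8 genes of the reelin pathway, without Reln itself, had median log2 ratios of 0.27, -0.11 and 0.16 in the 3 comparisons.

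Ecm1, the gene of extracellular matrix protein 1, a secreted glycoprotein known to hold TGF-β in its latent form in liver, spans chr3:95734147-95739569 on the minus strand. Hepatocytes make it as well, so Ecm1 is not specific to HSC. Its mean was 30.7 in control liver, 39.2 in TAL of Scd2f/f mice and 39.8 in that of Scd2f/f;CC mice. Ecm1 was thus higher in both TAL groups, by 27.7% and 29.6%, and was the only one of the 9 without a lower mean in Scd2f/f;CC TAL than in Scd2f/f TAL under upper-quartile normalization. Of the genes of TGF-β, its latent binding proteins and its activators, 11 of 12 listed were in the table. Like Ecm1, 10 of them had a higher mean in Scd2f/f TAL than in control liver (53.7% of all genes). Unlike Ecm1, all 11 had a lower mean in Scd2f/f;CC TAL than in Scd2f/f TAL (49.6% of all genes), 6 of them at least 2-fold (4.07%). Their median log2 ratios were 0.81, -1.32 and -0.45, of which the second was -0.59 with 1 added to each mean. Tgfb1 itself had means of 3.14 in control liver, 7.53 in TAL of Scd2f/f mice and 5.61 in that of Scd2f/f;CC mice. Thbs1, thrombospondin 1, an activator of latent TGF-β, had 3.63, 7.19 and 2.29, and Ltbp2, a relative of the latent TGF-β binding proteins, 0.456, 1.61 and 0.354. Tgfb3, with 1.1, 1.01 and 0.339, and Itgb8, an integrin chain that binds latent TGF-β, with 0.729, 1.28 and 0.512, were lowest in Scd2f/f;CC TAL as well.

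Colec10 (chr15:54410774-54466358, plus strand) and Colec11 (chr12:28594173-28623377, minus strand) encode collectins, secreted lectins that join into shared complexes, bind sugars on microbes and start the lectin pathway of complement through MASP proteases. Colec10 had means of 18.6 in control liver, 22.6 in TAL of Scd2f/f mice and 21.7 in that of Scd2f/f;CC mice, and Colec11 had 8.92, 12.8 and 9.98. Both were higher in Scd2f/f TAL than in control liver, by 1.22-fold and 1.43-fold. Although their proteins join, the transcripts parted in Scd2f/f;CC TAL, where Colec10 was 0.96 times and Colec11 0.780 times its Scd2f/f TAL mean. Whether these ratios differ beyond the spread between mice was not tested. Of their proteases, Masp1 had means of 53.6, 55.0 and 58.9 and Masp2 had 75.6, 80.3 and 93.8, in the same order of groups. The 10 of 11 listed genes of the lectin pathway in the table, many of them made by hepatocytes, had median log2 ratios of 0.32, -0.01 and 0.41. All 10 had a higher mean in Scd2f/f TAL than in control liver (53.7% of all genes), none of them 2-fold (9.37%).

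Hgf (chr5:16553495-16620152, plus strand) is the gene of hepatocyte growth factor, a signal from HSC to hepatocytes, which carry its receptor MET. Its mean was 14.4 in control liver, 19.2 in TAL of Scd2f/f mice and 16.4 in that of Scd2f/f;CC mice. Hgf was thus 1.33-fold higher in Scd2f/f TAL than in control liver, and its Scd2f/f;CC mean was 0.854 times that of Scd2f/f TAL. The gene Gm43489 shares 484 exon bases on the same strand, so part of the Hgf reads could have been assigned to either. Met had means of 68.5, 71.4 and 87.3, and Hgfac, the HGF activator, a serine protease of hepatocytes that cleaves pro-HGF, had 53.8, 45.8 and 64.4, so that both were highest in Scd2f/f;CC TAL. The plasminogen activators were highest in Scd2f/f TAL, with 0.626, 2.05 and 1.20 for Plau and 0.609, 1.20 and 0.277 for Plat. Over the 11 genes of the HGF pathway, without Hgf itself, the median log2 ratios were 0.22, -0.03 and -0.05, and with only the genes that had a mean of at least 1 they were 0.06, 0.01 and 0.29, so the list has no direction that holds.

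Ngfr, the gene of p75NTR, a receptor of neurotrophins and a surface marker of HSC on the portal side of the lobule, spans chr11:95568818-95587735 on the minus strand. Its mean was 1.49 in control liver, 3.25 in TAL of Scd2f/f mice and 2.37 in that of Scd2f/f;CC mice. Ngfr was 2.18-fold higher in Scd2f/f TAL than in control liver, a log2 ratio above that of 92.0% of all genes, and the Scd2f/f;CC mean was 0.729 times that of Scd2f/f TAL and still 1.59 times that of control liver. It was also the lowest of the 9 markers per length, and with 1 added to each mean it no longer reached 2-fold. Among the other genes of the neurotrophin pathway, Ntrk2, the receptor of BDNF, had 0.436 in control liver, 18.6 in TAL of Scd2f/f mice and 7.47 in that of Scd2f/f;CC mice. The 8 of 12 listed genes of this pathway in the table had median log2 ratios of 0.78, -0.84 and 0.03, with 6 of the 8 under a mean of 1 in control liver. The 4 genes of portal-side HSC, Ngfr among them, had median log2 ratios of 0.67, -0.62 and 0.08, and the 4 genes of central-side HSC 0.59, -0.59 and -0.12, so the lists of both sides were alike in direction in Scd2f/f TAL. Of these, Igfbp3 (portal side) had means of 5.59, 12.7 and 8.69 and Tagln 7.85, 3.79 and 1.75, while Spon2 (central side) had 1.16, 5.45 and 3.74 and Adamtsl2 3.25, 5.93 and 2.38.

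Rgs5, the gene of a regulator of G-protein signaling that shortens signals of receptors for vasoactive peptides (chr1:169655501-169695813, plus strand), marks HSC and also pericytes of other vessels. Its mean was 25.3 in control liver, 34.5 in TAL of Scd2f/f mice and 28.6 in that of Scd2f/f;CC mice. Rgs5 was thus 1.36-fold higher in Scd2f/f TAL than in control liver, and its Scd2f/f;CC mean was 0.829 times that of Scd2f/f TAL. Rgs4, a near relative, was low in all groups and ran the other way, with 0.515, 0.335 and 0.466. The 9 of 11 other RGS genes in the table had a median log2 ratio of 1.13 in Scd2f/f TAL against control liver, with 6 of the 9 at least 2-fold higher, of -0.46 in Scd2f/f;CC TAL relative to Scd2f/f TAL and of 0.62 in Scd2f/f;CC TAL against control liver. Immune cells are known to express several of these: Rgs1 had means of 1.17, 3.22 and 1.47, Rgs2 1.27, 5.14 and 3.02, Rgs10 0.489, 1.73 and 0.965, and Rgs16, which hepatocytes express too, 9.32, 20.4 and 23.9. Markers of smooth muscle and pericytes, 7 of 8 in the table, had median log2 ratios of 0.05, -0.41 and -0.40. In Scd2f/f TAL against control liver, 4 of the 7 had a higher mean (53.7% of all genes) and 3 a lower mean (45.8%). The pericyte genes Abcc9, with means of 23.6, 30.3 and 24.0, and Kcnj8, with 2.33, 3.10 and 2.31, had the highest mean in Scd2f/f TAL, as Rgs5 did. Kcnj8 was picked after its values were seen. Myh11, the smooth muscle myosin, had means of 2.79, 1.04 and 1.5, and Des, desmin, which HSC share with these cells, had 4.25, 3.29 and 1.98.

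Hand2, the gene of a bHLH transcription factor of mesoderm-derived cells that is known in liver from HSC, spans chr8:57320983-57324633 on the plus strand. Its mean was 3.34 in control liver, 3.94 in TAL of Scd2f/f mice and 2.55 in that of Scd2f/f;CC mice. Of the 9 markers, Hand2 had the smallest ratio in Scd2f/f TAL against control liver, 1.18-fold, and the lowest in Scd2f/f;CC TAL, 0.647 times Scd2f/f TAL and 0.763 times control liver. The former of these log2 ratios was above that of only 8.98% of all genes. Of the 2351 exon bases of Hand2, 461 are shared with the antisense gene Hand2os1, and reads of both genes in these bases cannot be told apart here. Tcf21, another bHLH factor of HSC, had the same order of means, 1.76, 2.32 and 1.47, whereas Gata4, a factor that HSC share with endothelial cells and that is known to keep HSC quiescent, had 6.01, 7.73 and 7.64 with both TAL means close to each other. Over the 9 of 11 genes of HAND2 partners and mesodermal factors in the table, none of which reached 2-fold in any comparison, the median log2 ratios were 0.36, -0.34 and -0.03.

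Levels per kilobase were taken over the union of exons of all annotated transcripts, which can be longer than the transcript present in liver. On this scale, Ecm1 had the highest level of the markers, with 12.2, 15.5 and 15.8 normalized reads per kb in control liver, Scd2f/f TAL and Scd2f/f;CC TAL. Rgs5 and Colec11 came next, with 5.57 and 5.50 in control liver, and changed places in Scd2f/f TAL, where they stood at 7.59 and 7.90. Colec10, Reln, Lrat, Hgf, Hand2 and Ngfr followed in this order in all 3 groups. In Scd2f/f;CC TAL, Reln and Lrat stood at 3.02 and 2.99, and without values of each mouse neighbours this close cannot be ordered. Ngfr was lowest with 0.432, 0.943 and 0.688. Reln had the highest mean per gene but ranked behind Ecm1, Rgs5, Colec11 and Colec10 per kb. Its length of 23.738 kb is a union over 15 transcripts, and a shorter length would raise its level per kb. The rank of Reln thus depends on the length used.

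The markers were next set beside genes of the 2 states of HSC. Of 25 other genes of HSC identity, 24 were in the table. In Scd2f/f TAL against control liver, 17 of the 24 had a higher mean (53.7% of all genes) and the median log2 ratio was 0.34, near the 0.35 of the 9 markers. In Scd2f/f;CC TAL relative to Scd2f/f TAL, 17 had a lower mean (49.6% of all genes) and the median was -0.41. In Scd2f/f TAL against control liver, 7 of the 24 had a lower mean (45.8% of all genes), as none of the 9 markers did. Their median was 0.03 in Scd2f/f;CC TAL against control liver. Pparg, a nuclear receptor tied to the quiescent state, had means of 4.01, 9.28 and 7.17 in control liver, Scd2f/f TAL and Scd2f/f;CC TAL, and Sod3, extracellular superoxide dismutase, had 7.30, 16.3 and 11.5. Genes of HSC activation and myofibroblasts, 27 of 28 in the table, had much wider ratios. In Scd2f/f TAL, 24 had a higher mean than in control liver (53.7% of all genes), 13 of them at least 2-fold (9.37%), with a median log2 ratio of 0.92. In Scd2f/f;CC TAL relative to Scd2f/f TAL, 26 of the 27 had a lower mean (49.6% of all genes), 13 of them at least 2-fold (4.07%), with a median of -0.97. Against control liver their median was -0.02. Col1a1, the gene of collagen type I and the source of the Cre promoter, had means of 4.69, 19.6 and 4.51, and Lox and Loxl1, which crosslink collagen and elastin, had 0.230, 1.19 and 0.309, and 0.902, 2.01 and 0.525. Tagln, a gene of contractile cells, was 1 of the 3 with a lower mean in Scd2f/f TAL, with 3.79 beside 7.85 in control liver. The others were Acta2, whose protein the study used to mark activated HSC, with 1.20 beside 1.27, and Myl9, with 0.85 beside 1.08. In Scd2f/f TAL, then, means of the quiescent markers and of most activation genes were higher than in control liver. The medians of these lists were 0.35 and 0.92 on the log2 scale.

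**Figure D3:**
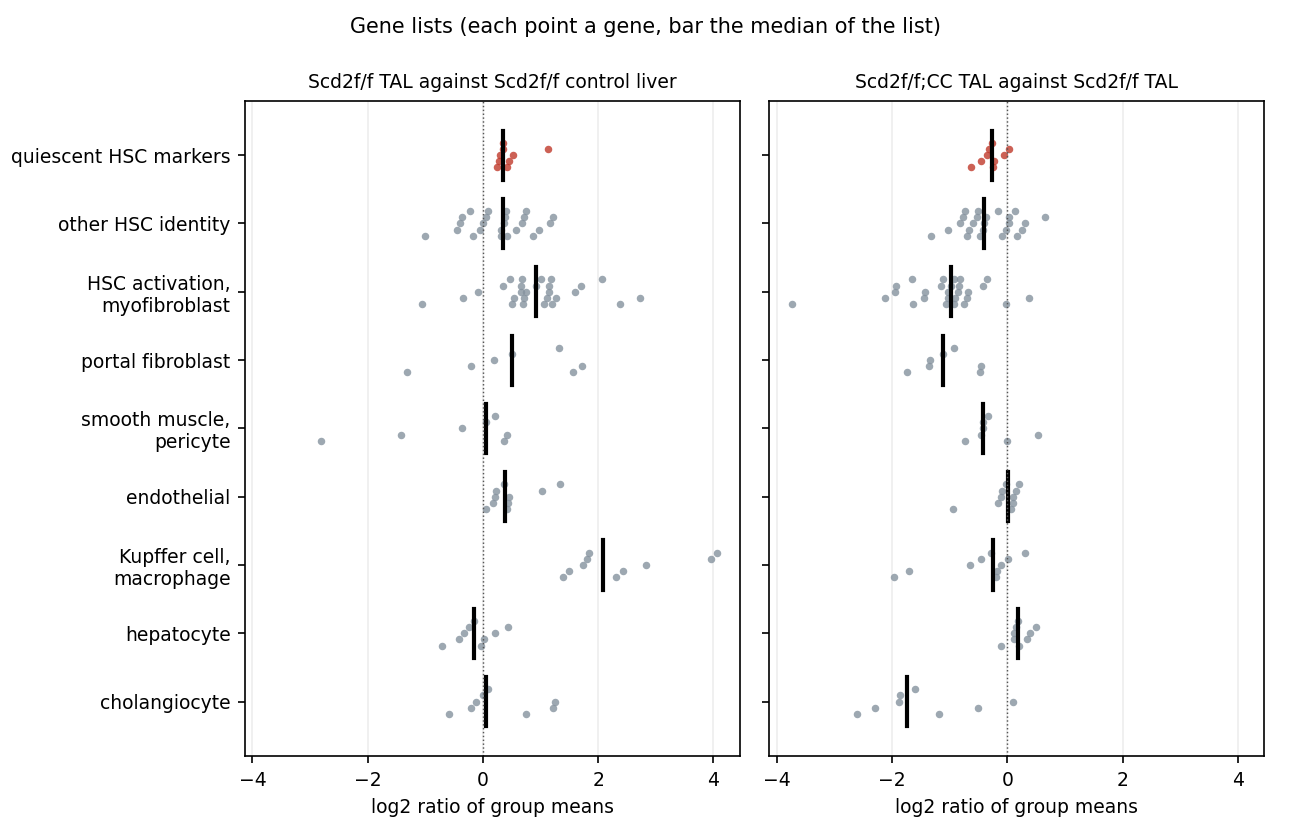
Log2 ratios of group means for the 9 quiescent HSC markers (red) and 8 other gene lists (grey), with 1 point per gene and a black bar at the median of each list, for Scd2f/f TAL against control liver (left) and Scd2f/f;CC TAL relative to Scd2f/f TAL (right). The markers have medians of 0.35 and -0.27, with Ngfr apart to the right at 1.13 in the left panel and Hand2 to the left at -0.63 in the right panel, whereas activation genes have medians of 0.92 and -0.97 and Kupffer cell and macrophage markers have 2.08 and -0.25. Both panels use the same Scd2f/f TAL means.

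Markers of other cells differed between the same tissues, and their part in the values of the quiescent markers was not tested. Markers of Kupffer cells and macrophages were at least 2-fold higher in Scd2f/f TAL than in control liver for 10 of 10 genes (9.37% of all genes). Their means summed to 82.5, 316 and 280 in control liver, Scd2f/f TAL and Scd2f/f;CC TAL. Cd5l had 22.9, 114 and 99.0, and Clec4f, the lectin that defines Kupffer cells, had 27.3, 71.2 and 71.7. Endothelial markers, 10 of 10, were higher as well (53.7% of all genes), with a median log2 ratio of 0.39, close to that of the quiescent markers. Their median was 0.02 in Scd2f/f;CC TAL relative to Scd2f/f TAL, or -0.15 with groups scaled by the sum of all genes. The sums of their means were 178, 227 and 233, and Stab2 and Kdr, with 36.9, 42.8 and 45.9, and 29.8, 34.9 and 40.2, were the most abundant of them. Markers of portal fibroblasts, the other cells in which the Cre is active, were low, with sums of 5.22, 7.64 and 3.69 over 7 of 8 genes and median log2 ratios of 0.51, -1.12 and -0.17, of which the second was -0.48 with 1 added to each mean. Hepatocyte markers, 9 of 10, had medians of -0.15, 0.19 and 0.17, the first of which was 0.16 with groups scaled by the sum of all genes. No gene of any list was listed at 0 in any group.

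**Figure D4:**
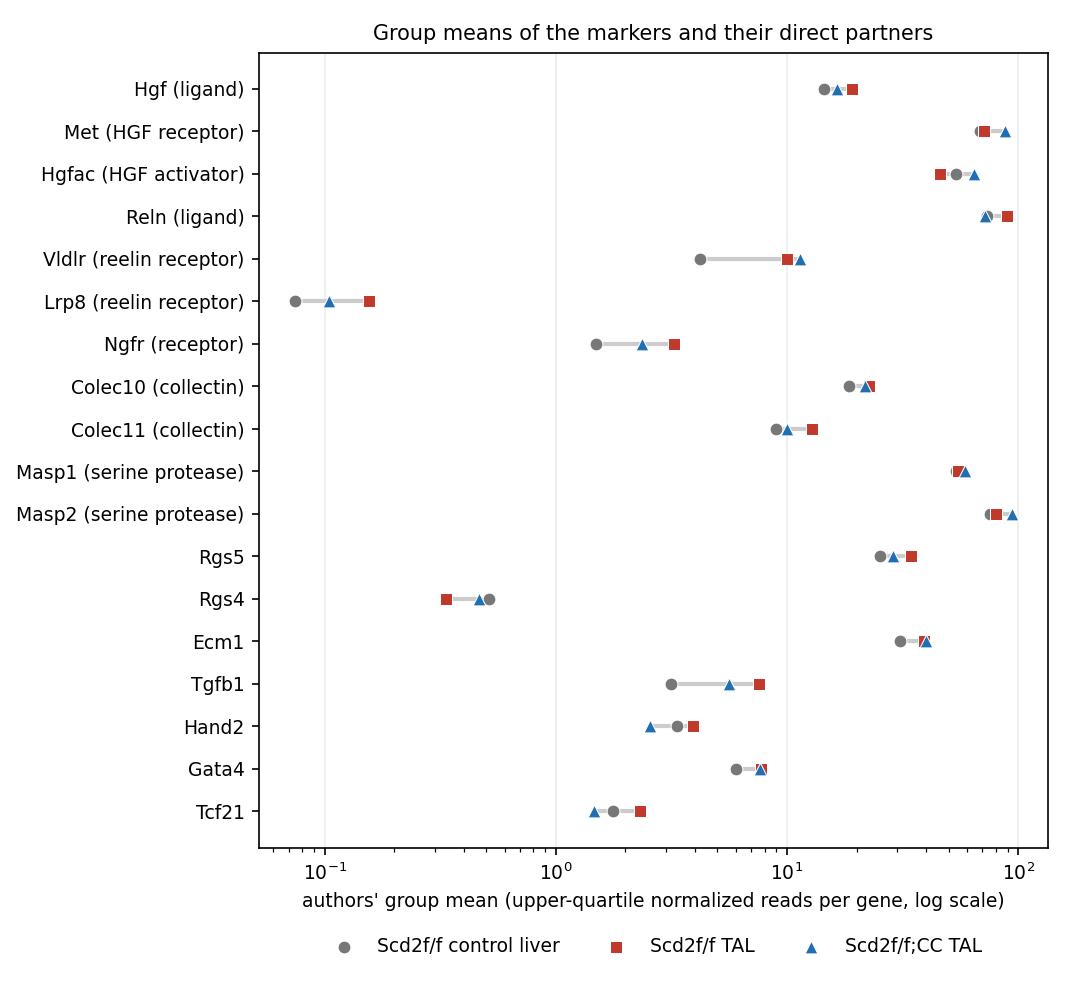
Authors' group means of the quiescent markers other than Lrat beside the ligands, receptors, proteases and factors they are known to act with, in upper-quartile normalized reads per gene (log axis), with 1 symbol per group. Met and Hgfac are highest in Scd2f/f;CC TAL, with 87.3 and 64.4, where Hgf, with 16.4, is lower than its 19.2 in Scd2f/f TAL.

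The genes whose means ran most like those of Lrat were Sdcbp, Krcc1, Ubtd1, Ptprs and Sfr1. They were taken as the 5 of 11095 other genes with a mean of at least 1 in every group for which the larger of the differences from Lrat in the log2 ratios of Scd2f/f TAL against control liver and of Scd2f/f;CC TAL relative to Scd2f/f TAL was smallest, between 0.0048 and 0.011. Sdcbp, for example, had means of 28.5, 36.1 and 30.3. By the same measure, 1.18% of these genes were nearer to Lrat than Reln was, 1.38% nearer than Hgf and 2.87% nearer than Rgs5, whereas 39.0% were nearer than Hand2 and 82.1% nearer than Ngfr. Likeness over 3 group means is a description, and many genes have it.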

How the data were processed

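Liver RNA of 9 mice, 3 per group, was sequenced by the authors from polyA-selected libraries that do not keep strand. Per the submitters' processing notes, STAR 2.6.1 and Partek 6 were used with mm10, and the study's methods name Gencode M3, the Partek E/M method, upper-quartile normalization and Partek Gene Specific Analysis. The deposited table has 18 columns. The signal used here is the authors' least-squares mean of normalized reads per gene in each of 3 groups. Its other numeric columns hold the authors' p-values, FDR, ratios and fold changes of 2 comparisons and were not used. Log2 ratios of the means were computed without a pseudocount for 3 comparisons, and a ratio counted from 2-fold. Group means carry no spread between mice, so no test was run, and the computing steps were checked on made-up tables with known ratios. The table has no column for a depth of any sample, and no interval rests on counts. Gene positions are those of GENCODE M21 on GRCm38, which has the starts of the table for all 9 markers, and exon lengths are the union over its transcripts.

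The members and all gene lists were chosen with earlier results of these data known. Genes were looked up under the listed symbol only, so a gene held under another name counts as not in the table. Of each of 20 other lists (225 genes), genes at least 2-fold different with a mean of at least 1 were named, at most 4 a list, with direct partners of the markers, up to 2 of the most abundant markers of each other cell type, Scd2, Col1a1 and the 5 genes most like Lrat. Some items that this rule names are not reported here. Alternatives were pseudocounts of 0.1 and 1, a filter at a mean of 1, scaling by the sum, centring on the median and a limit of 1.5-fold. The software was Python 3.11.15, NumPy 2.4.6, pandas 2.3.3 and Matplotlib 3.10.9.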

Additional observations from a re-analysis of the deposited data

How the results depend on the processing

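No paired analysis was possible because the values used are group means, so no replicate could be blocked or left out, and the spread between mice limits every value to an unknown degree. The median log2 ratio of the 9 markers kept its direction in all 3 comparisons under all alternatives: 0.33 to 0.67 in Scd2f/f TAL against control liver, -0.44 to -0.26 in Scd2f/f;CC TAL relative to Scd2f/f TAL and 0.14 to 0.33 in Scd2f/f;CC TAL against control liver. With 1 added to each mean, 0 markers were 2-fold higher in Scd2f/f TAL against control liver. With a limit of 1.5-fold, 1 marker, Hand2, was lower in Scd2f/f;CC TAL relative to Scd2f/f TAL (9.8% of all genes), and 1, Ngfr, was higher in Scd2f/f;CC TAL against control liver (14.9% of all genes). Scaling by the sum of all genes adds a constant and turned values near 0. In Scd2f/f TAL against control liver, the hepatocyte median became 0.16. In Scd2f/f;CC TAL relative to Scd2f/f TAL, Ecm1 became -0.15, and the medians of retinoid handling and endothelial genes became -0.10 and -0.15. In Scd2f/f;CC TAL against control liver, Reln became 0.12, and the medians of HSC activation, HGF pathway, HAND2 partner and central-side HSC genes became 0.13, 0.10, 0.12 and 0.033. With only genes of a mean of at least 1, the cholangiocyte median became -0.015 in Scd2f/f TAL against control liver, and the HGF pathway median became 0.011 and 0.29 in Scd2f/f;CC TAL relative to Scd2f/f TAL and against control liver. Centring turned the medians of other HSC identity genes and neurotrophin genes in Scd2f/f;CC TAL against control liver to -0.015 and -0.0094.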

Other observations

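Markers of bile duct cells had low means in Scd2f/f;CC TAL. The 8 genes had median log2 ratios of 0.05 in Scd2f/f TAL against control liver, -1.74 in the comparison of the TAL groups and -1.59 in Scd2f/f;CC TAL against control liver, although 4 of the 8 had a mean under 1 in Scd2f/f TAL. With 1 added to each mean, the latter 2 medians were -0.48 and -0.39, and over the 4 genes that reached a mean of 1 they were -1.06 and -0.82. Spp1, osteopontin, had means of 52.3 in control liver, 45.1 in TAL of Scd2f/f mice and 14.8 in that of Scd2f/f;CC mice, and Epcam, a surface protein of bile duct cells and progenitors, had 1.97, 1.82 and 0.5. Their log2 ratios in the comparison of the TAL groups were -1.61 and -1.86, beside -0.63 for Hand2, the lowest of the 9 quiescent HSC markers.

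The 8 lymphocyte markers had means that summed to 1.86, 5.64 and 4.05 in the same order of groups, with Cd3e at 0.226, 1.25 and 0.545 and Cd8a at 0.235, 1.05 and 0.302. All 8 had a higher mean in Scd2f/f TAL than in control liver (53.7% of all genes). Between the TAL groups, 4 were lower in that of Scd2f/f;CC mice (49.6% of all genes), Cd3e and Cd8a among them, and 4 were higher (49.5%). Their median log2 ratios were 1.65, -0.09 and 1.13. With 1 added to each mean, the first and the last were 0.37 and 0.32, and over Cd3e and Cd8a alone, which reached a mean of 1, the first 2 were 2.31 and -1.50. Mesothelial markers, 7 genes, had median log2 ratios of -1.26, -0.35 and -1.58. With 1 added to each mean, the first and the last of these were -0.61 and -0.58. Of this list, Krt8, with means of 273, 138 and 106, and Krt18, with 216, 90.5 and 72.4, are keratins that hepatocytes also make, and the other 5 genes were under a mean of 1 in every group.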
